A study of Mus musculus with 11 samples.

Results

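Primary microglia stimulated with lipopolysaccharide plus interferon-gamma (LPS/IFNg) were compared with primary microglia stimulated with transforming growth factor beta (TGFb), a proinflammatory against a TGFb-conditioned state. The arrays were taken by their treatment label, 2 arrays for LPS/IFNg and 3 for TGFb, so that 5 of the 11 arrays of the series carried the comparison. All cells came from brains of newborn C57BL/6J mice and were grown in DMEM with heat-inactivated serum. LPS/IFNg was given at 100 ng/ml LPS with 20 ng/ml IFNg for 16 h, and TGFb at 20 ng/ml for 48 h. Untreated microglia (3 arrays, no time given) served as the common reference. In the fit, 3 arrays of microglia treated with IL-4 for 48 h only added to the estimate of the spread. They also counted in the normalization, the detection filter and the choice of probes. Because the stimulus and the time changed together, they cannot be told apart in any difference below. The labels number the arrays as replicates but do not say that they came from separate cultures or litters, so the p-values measure the spread between these samples, which may be technical.

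Microglia are the resident macrophages of the brain. LPS, a bacterial cell wall component, is read by Toll-like receptor 4, which acts through MyD88 and TRIF on NF-kB and interferon regulatory factors; IFNg acts through its own receptor and STAT proteins on interferon-stimulated genes. TGFb binds a complex of type I and type II receptors that phosphorylates Smad proteins, and TGFb signalling is known as a requirement for the homeostatic gene programme of microglia in the mouse brain, with Tmem119, P2ry12, Gpr34 and Olfml3 among its members.

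Levels are given as log2 intensity after background correction and quantile normalization, and a difference is always LPS/IFNg minus TGFb on that log2 scale with its standard error and the limma p-value adjusted over all 8952 tested genes. A gene was called at an adjusted p below 0.05. On the LPS/IFNg arrays 7369 and 7243 of the tested genes were detected, against 8002, 7812 and 7669 on the TGFb arrays. The 2 LPS/IFNg arrays correlated at r = 0.982 across genes, the TGFb arrays at 0.972 to 0.983, and arrays of different treatment at 0.805 to 0.826, where genes are no independent replicates. The number of arrays limits the precision: the median SD within a group was 0.17 for LPS/IFNg and 0.20 for TGFb. RNA was taken from whole cultures, so fewer cells of a type and less RNA per cell cannot be told apart. Of 18 microglia markers 15 were tested, and C1qb (14.56 after LPS/IFNg and 14.44 after TGFb) and Aif1 (12.61 and 11.26) were high in both treatments, whereas Tmem119, P2ry12 and Gpr34 were detected on no LPS/IFNg array. The arrays came from 2 slides, and each slide held both treatments: slide 1 held LPS/IFNg replicate 1 and TGFb replicates 1 and 2, and slide 2 held the third replicate of both and all 3 untreated arrays.

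Of 8952 genes, 3756 (42.0%) were called, 1592 of them (17.8%) higher after LPS/IFNg and 2164 (24.2%) higher after TGFb. A difference of 2-fold or more was seen in 957 and 1382 of these, and one of 8-fold or more in 220 and 187. Of the called genes 219 were detected on no TGFb array and 516 on no LPS/IFNg array. For such genes a lower limit ("at least") is given. It is the mean of the measured group against, per array, the higher of the array's detection floor and the gene's own value. These limits depend on the background correction: of 688 called genes with one, 612 had a smaller fold without it (Slco2b1 57.1-fold, Nos2 5.74-fold) and 592 in the authors' table (65.0-fold and 6.57-fold). Of the called genes 107 (93 higher after LPS/IFNg, 14 after TGFb) were detected in their higher group alone and passed the filter through it, so they had to differ. Nos2, Upp1, Timd4, Serping1, Ptgs2, Ccne1 and Clec12a below are among them. Il6, Serpina3f, Mmp25 and H2-Aa below were detected on both LPS/IFNg arrays and on only 1 other array, an IL-4 or untreated one. They too passed the filter only through their higher group, and their p-values carry the same limit. The 2 groups of arrays did not overlap in 3746 of the 3756 called genes, and in 5804 (64.8%) of all tested genes. With slide as a block 3727 genes were called. All 3756 genes had the same sign within both slides. That sign was fixed in advance for the 3746 whose groups did not overlap, so the agreement is no separate check of the slides. Of 194 called genes picked by the rule for named genes, 62 missed the threshold within slide 1 alone and 40 within slide 2 alone, where 1 LPS/IFNg array stands against 2 TGFb arrays or 1. Median scaling in place of quantile normalization moved the median of all genes from -0.07 to 0.05, a shift of 0.12, and with it the share of calls higher after LPS/IFNg from 42.4% to 51.6% of 3737 calls, so the balance of the directions depended on the scaling.

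**Figure D1:**
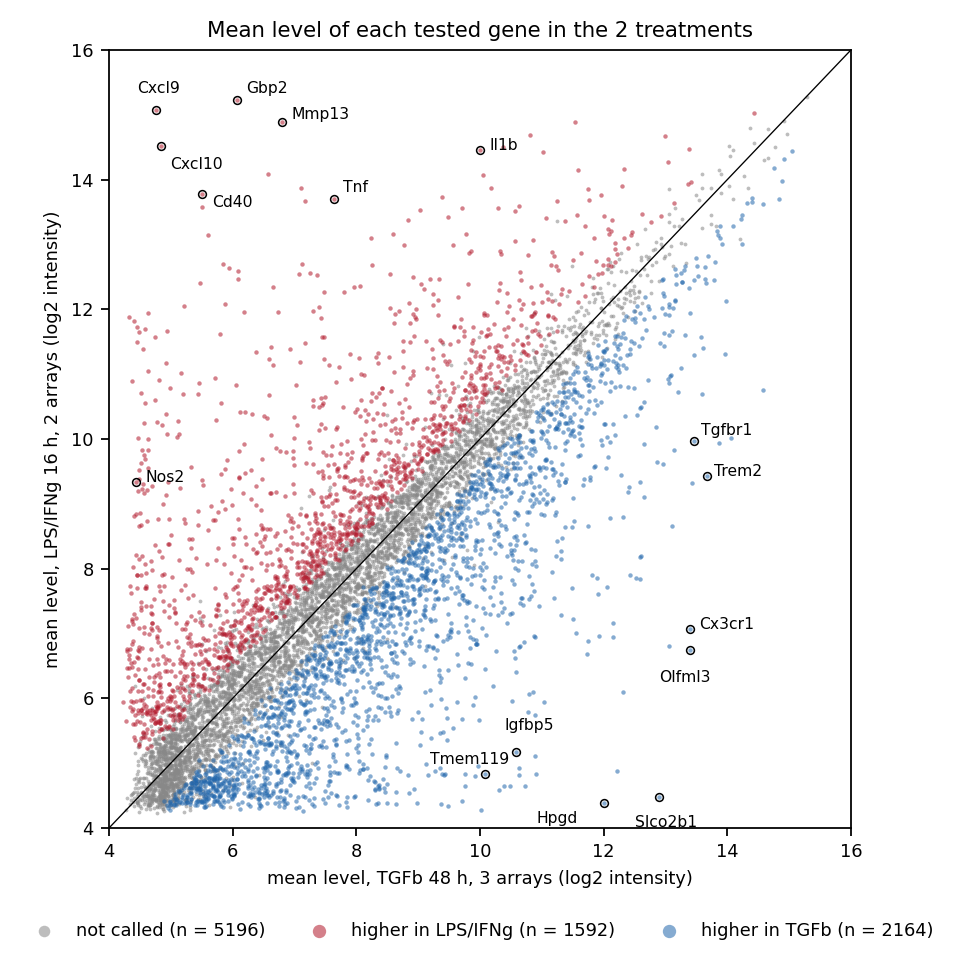
Mean level of each tested gene after TGFb (x axis, log2 intensity, 3 arrays) and after LPS/IFNg (y axis, log2 intensity, 2 arrays), with the diagonal of equal level; red points were called higher after LPS/IFNg (1592), blue points higher after TGFb (2164) and grey points not called. Cxcl9 and Cxcl10 lie at the top left, and Slco2b1 and Hpgd at the bottom right at the level of genes that are not detected.

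Chemokines, the secreted proteins that attract leukocytes, were far higher after LPS/IFNg. Cxcl9, a ligand of the chemokine receptor Cxcr3 on T cells, known as a classical IFNg target, stood at 15.08 and 15.08 after LPS/IFNg and 4.67, 5.18 and 4.40 after TGFb, where it was detected on 1 of 3 arrays (10.33 ± 0.51, adjusted p = 2.31e-07). Cxcl10, a further Cxcr3 ligand, stood at 14.46 and 14.57 after LPS/IFNg and 5.37, 4.68 and 4.46 after TGFb (9.67 ± 0.57, adjusted p = 7.65e-07), again detected on 1 TGFb array. Both were near the top of the array's range after LPS/IFNg and near its floor after TGFb. Ccl2, the main monocyte attractant, stood at 9.90 and 10.59 after LPS/IFNg and 5.09, 4.33 and 4.27 after TGFb (5.68 ± 0.83, adjusted p = 0.000302). Ccl7, which shares receptor Ccr2 with it, stood at 11.52 and 11.88 after LPS/IFNg and 4.52, 4.94 and 4.29 after TGFb; no TGFb array detected it, and it was at least 93.5-fold (adjusted p = 0.00109) higher after LPS/IFNg. Ccl12, a mouse Ccr2 ligand, read 13.38 and 13.95 after LPS/IFNg and 9.25, 6.02 and 6.23 after TGFb (6.50 ± 1.67, adjusted p = 0.00934), the highest TGFb array lying clearly above the others. Ccl5, a T cell and monocyte attractant, was already high after TGFb, at 14.36 and 14.64 after LPS/IFNg and 9.82, 11.69 and 9.60 after TGFb (4.13 ± 1.10, adjusted p = 0.0114). For these 6 chemokines no TGFb array reached an LPS/IFNg array. Ccl12 was picked from genes without overlap, so for it this was given. The calls of Ccl12 and Ccl5 did not outlast leaving out LPS/IFNg replicate 3, with adjusted p = 0.0624 and 0.0683, and that of Ccl5 was also lost without replicate 1. Of 20 tested chemokines 13 were higher after LPS/IFNg, and Cxcl14 alone was higher after TGFb (10.80 against 6.06, difference -4.74 ± 0.61, adjusted p = 0.000126). The median difference of the list was 3.52, against -0.07 over all genes.

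Cytokines moved with the chemokines. Tnf, the early macrophage cytokine, stood at 13.41 and 14.002 after LPS/IFNg and 7.71, 7.45 and 7.75 after TGFb (6.07 ± 0.31, adjusted p = 2.73e-07), a 67.3-fold difference with little spread in either group. Il6 read 9.79 and 9.88 after LPS/IFNg and 4.83, 4.48 and 4.60 after TGFb; it was detected on no TGFb array and was at least 25.7-fold (adjusted p = 1.19e-07) higher after LPS/IFNg. Il1b, which is cleaved by caspase-1 before release, had a high level in both, 14.64 and 14.28 after LPS/IFNg and 11.55, 9.55 and 8.93 after TGFb (4.45 ± 0.80, adjusted p = 0.0011). Its mean untreated level of 12.09 ± 0.81 (SD, n = 3) lay between the treatments. Il1rn, the natural antagonist of the IL-1 receptor, showed the same direction as Il1b, at 12.89 and 12.39 after LPS/IFNg and 6.90, 5.58 and 5.34 after TGFb (6.70 ± 0.77, adjusted p = 5.97e-05). Il1a was higher as well (5.50 ± 0.53, adjusted p = 1.67e-05), with detection on 1 of 3 TGFb arrays. Of 19 tested cytokines 15 were higher after LPS/IFNg and Osm, oncostatin M, was higher after TGFb (-1.41 ± 0.31, adjusted p = 0.00388; 0.0574 without LPS/IFNg replicate 3). The 3 that were not called, named after their values were seen, were Csf1 (0.04), Il23a (0.22) and Inhba (0.10). The list's median difference was 2.93.

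Interferon-stimulated genes were almost uniformly higher after LPS/IFNg. Of 40 tested antiviral genes 36 were called, all higher after LPS/IFNg, with a median difference of 3.14. Rsad2 (viperin), an antiviral radical enzyme, stood at 13.98 and 13.76 after LPS/IFNg and 6.87, 7.27 and 7.19 after TGFb (6.76 ± 0.85, adjusted p = 0.000104). Oasl1, of the oligoadenylate synthetase family, read 11.92 and 11.98 after LPS/IFNg and 4.58, 4.97 and 4.32 after TGFb; no TGFb array detected it, and it was at least 111-fold (adjusted p = 9.63e-05) higher. Ifi205, a DNA-sensing PYHIN family member, read 11.68 and 11.63 after LPS/IFNg and 4.33, 4.66 and 4.45 after TGFb (at least 90.7-fold, adjusted p = 5.36e-05). Cmpk2, a mitochondrial nucleotide kinase, read 12.08 and 12.62 after LPS/IFNg and 6.25, 6.91 and 6.78 after TGFb (5.70 ± 0.81, adjusted p = 0.000248). In all 4 the LPS/IFNg arrays stood clear of the TGFb arrays. Rsad2 and Cmpk2 were picked from genes without overlap, so for them this was given. The 4 antiviral genes that were not called, named after their values were seen, were Dtx3l (1.87), Ifi27l2a (1.18), Lgals3bp (0.81) and Ly6e (0.04). The mean level of the tested antiviral genes was 10.99 to 11.001 on the LPS/IFNg arrays and 7.26 to 7.76 on the TGFb arrays, and TGFb replicate 1 was the highest of its group.

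All 11 tested guanylate-binding and immunity-related GTPases, which act on the vacuoles of intracellular pathogens, were higher after LPS/IFNg, with a median difference of 4.60. Gbp2 had the highest difference among genes detected on every array, with levels of 15.14 and 15.33 after LPS/IFNg and 7.40, 5.39 and 5.40 after TGFb (9.18 ± 0.99, adjusted p = 3.94e-05). TGFb replicate 1 lay above the other TGFb arrays and still far below either LPS/IFNg array. Gbp3 (6.86 ± 1.11, adjusted p = 0.000561) and Ifi47 (6.74 ± 0.87, adjusted p = 0.000125) followed. Probes of these and of other near-identical families (Oas, Ifi200, H2-Q, Serpina3, Clec4a) can share signal between copies, so the split of signal among their members is uncertain.

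Among the regulators of interferon signalling 13 of 28 tested were higher after LPS/IFNg and 2 after TGFb (median difference 0.90). Irf1, a STAT-induced activator, stood at 14.03 and 14.13 after LPS/IFNg and 10.54, 9.89 and 9.71 after TGFb (4.03 ± 0.38, adjusted p = 1.57e-05). Irf7, the amplifier of type I interferon, stood at 12.62 and 12.80 after LPS/IFNg and 7.14, 7.71 and 6.49 after TGFb (5.59 ± 1.03, adjusted p = 0.00133). Batf2, a partner of Irf1 in macrophages, was detected on no TGFb array, at 11.56 and 11.58 after LPS/IFNg and 4.89, 4.72 and 4.62 after TGFb, and was at least 85.4-fold (adjusted p = 9.21e-07) higher after LPS/IFNg. Socs3, a feedback inhibitor of cytokine receptors, read 12.42 and 12.11 after LPS/IFNg and 9.01, 6.79 and 6.63 after TGFb (4.79 ± 1.20, adjusted p = 0.00794); its TGFb values were wide, and without LPS/IFNg replicate 1 the adjusted p was 0.0514. The 2 higher after TGFb were Ifngr1, the ligand-binding chain of the IFNg receptor (-1.54 ± 0.30, adjusted p = 0.00209), and Socs2. Socs2 was detected on no LPS/IFNg array (at least 4.24-fold, adjusted p = 0.0197; up to adjusted p = 0.0965 when an LPS/IFNg array or TGFb replicate 1 was left out). Irf8, a macrophage lineage factor picked after its value was seen, differed by 0.13 ± 0.32 and was not called.

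The promoters of Cxcl10, Cxcl9, Gbp2 and Irf1, higher after LPS/IFNg, and of Cx3cr1, higher after TGFb, are shown as examples. Several carry the sequence elements through which interferon and NF-kB signals are known to act. The sequences are the 250 bases before the transcription start in RefSeq (GRCm38.p6), written 5' to 3' on the gene's strand. Matches to any of the 6 searched motifs are in capitals. Cxcl10 (chr5:92348890-92349139, minus strand) has an interferon-stimulated response element (ISRE) core, 3 kappa-B matches of which 2 overlap, and an AP-1 match. Cxcl9 (chr5:92328080-92328329, minus strand) and Gbp2 (chr3:142620413-142620662, plus strand) have an ISRE core each, with an AP-1 match in Gbp2. Irf1 (chr11:53769764-53770013, plus strand) has a GAS and a kappa-B match. Cx3cr1 (chr9:120068297-120068546, minus strand), the fractalkine receptor gene and low after LPS/IFNg, has none of the 6 in this window. Other named genes higher after TGFb do carry such elements. Tgfbi, Cxcl14, Cd9 and Apoe have an ISRE core, Slco2b1 a GAS match, and Igfbp5 and P2ry12 kappa-B matches. The 5 windows shown are therefore no measure of a difference between the treatments.
Cxcl10: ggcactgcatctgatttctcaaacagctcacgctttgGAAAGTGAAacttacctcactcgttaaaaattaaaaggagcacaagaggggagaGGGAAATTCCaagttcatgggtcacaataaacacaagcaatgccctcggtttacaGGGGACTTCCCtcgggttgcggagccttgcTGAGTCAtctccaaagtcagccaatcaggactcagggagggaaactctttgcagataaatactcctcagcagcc
Cxcl9: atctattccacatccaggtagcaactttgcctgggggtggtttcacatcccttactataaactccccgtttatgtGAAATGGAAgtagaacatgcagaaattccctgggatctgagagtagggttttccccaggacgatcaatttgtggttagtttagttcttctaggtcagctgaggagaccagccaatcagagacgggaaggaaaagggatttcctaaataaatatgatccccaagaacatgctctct
Gbp2: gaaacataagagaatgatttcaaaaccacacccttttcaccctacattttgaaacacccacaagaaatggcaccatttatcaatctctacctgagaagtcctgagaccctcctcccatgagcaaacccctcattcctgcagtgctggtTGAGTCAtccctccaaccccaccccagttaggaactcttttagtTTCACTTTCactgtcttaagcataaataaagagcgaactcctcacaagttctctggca
Irf1: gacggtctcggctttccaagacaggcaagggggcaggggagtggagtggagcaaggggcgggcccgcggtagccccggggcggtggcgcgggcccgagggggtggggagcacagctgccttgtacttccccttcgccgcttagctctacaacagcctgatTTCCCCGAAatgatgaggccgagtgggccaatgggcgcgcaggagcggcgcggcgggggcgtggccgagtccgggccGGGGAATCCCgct
Cx3cr1: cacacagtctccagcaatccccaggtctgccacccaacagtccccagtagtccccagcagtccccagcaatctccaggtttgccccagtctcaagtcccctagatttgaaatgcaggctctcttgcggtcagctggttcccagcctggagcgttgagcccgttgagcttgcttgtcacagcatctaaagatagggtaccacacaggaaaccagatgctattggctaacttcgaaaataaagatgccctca

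The motifs, searched on both strands, were the ISRE core GAAANNGAA, GAS (TTCNNNGAA), the kappa-B consensus, AP-1 (TGANTCA), PU.1 (GAGGAAGT) and the Smad element CAGACA. Of the 8952 tested genes 7338 had at least 1 promoter window, and a gene counted once if any of its windows matched. The ISRE core was found in 7.63% of them, in 11.97% of the 1303 genes called higher after LPS/IFNg and in 28.1% of the 167 that were 8-fold or more higher. The corresponding shares among genes higher after TGFb were 6.36% of 1761 and 7.69% of the 143 at 8-fold or more. The kappa-B consensus was found in 10.6% of tested genes, in 23.95% of those 8-fold or more higher after LPS/IFNg and in 12.6% of those 8-fold or more higher after TGFb. AP-1 followed the same order, with 5.34%, 14.97% and 8.39%. Over all called genes the shares were nearer to those of tested genes. Kappa-B was in 13.3% of genes called higher after LPS/IFNg and 10.8% of those called higher after TGFb, and AP-1 in 6.45% and 5.62%. GAS was in 7.33% of tested genes and in 8.29% and 7.27% of these called genes. The shares for PU.1 were 3.09%, 3.76% and 2.84%. The Smad element is short and common: it was in 15.4% of tested genes, in 22.4% of those 8-fold or more higher after TGFb and in 19.2% of those 8-fold or more higher after LPS/IFNg. Over all called genes it was in 15.8% of those higher after TGFb and in 14.3% of those higher after LPS/IFNg. Of the GTPases 8 of 9 with a window had an ISRE core, and of the antiviral genes 11 of 28. Over all 32851 windows of the RefSeq table the shares were 7.13% for the ISRE core, 7.25% for kappa-B and 17.1% for the Smad element. These are counts of letters in a window and carry no test.

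**Figure D2:**
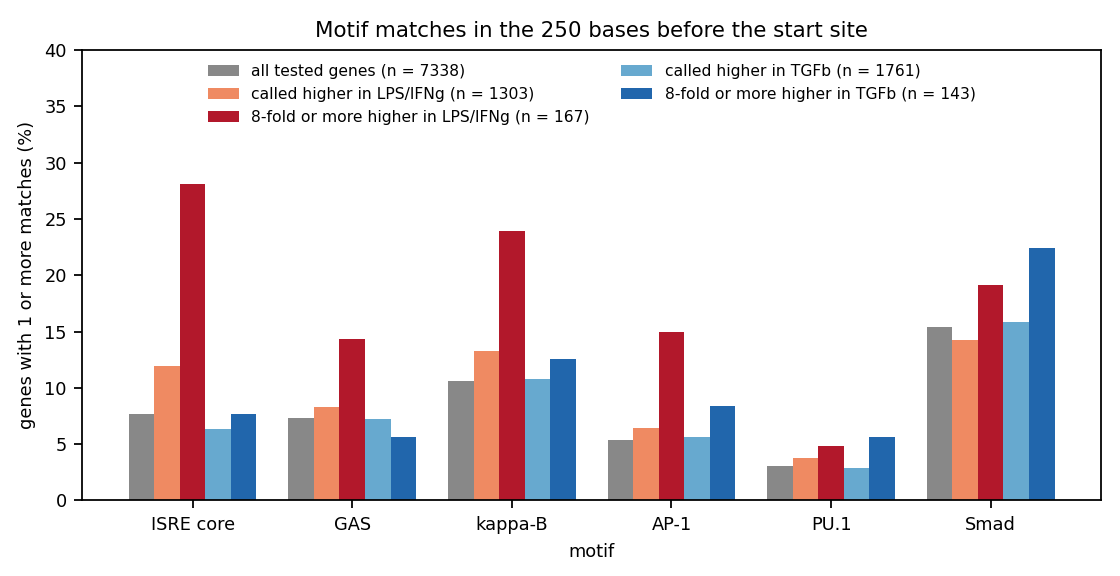
Share of genes with 1 or more matches of each motif (y axis, percent) in the 250 bases before the start site, for all tested genes with a window (grey), genes called higher after LPS/IFNg (orange; red, 8-fold or more) and genes called higher after TGFb (light blue; dark blue, 8-fold or more). The red bars for the ISRE core (28.1%) and kappa-B (23.95%) stand above the grey bars (7.63% and 10.6%).

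Enzymes that make nitric oxide and itaconate, effector products of inflammatory macrophages, separated the treatments fully. Nos2, the inducible nitric oxide synthase, read 9.99 and 8.69 after LPS/IFNg and 4.54, 4.39 and 4.39 after TGFb; no TGFb or untreated array detected it, and it was at least 18.2-fold (adjusted p = 9.21e-07) higher after LPS/IFNg. Acod1, which makes itaconate from a citric acid cycle intermediate, stood at 13.59 and 13.57 after LPS/IFNg and 6.32, 5.54 and 4.65 after TGFb (8.08 ± 0.77, adjusted p = 1.62e-05), detected on 2 of 3 TGFb arrays. Slc7a2, an arginine transporter, was 58.1-fold higher (5.86 ± 0.44, adjusted p = 3.26e-06). Arg1, which competes with Nos2 for arginine, was detected on none of the 5 arrays (4.47 and 4.38 after LPS/IFNg and 4.99, 4.34 and 4.25 after TGFb). In total 8 of 14 tested genes of this list were higher after LPS/IFNg and Spr, sepiapterin reductase, was higher after TGFb (-1.44 ± 0.24, adjusted p = 0.000616). Ptgs2 (cyclooxygenase 2) read 7.78 and 8.51 after LPS/IFNg and 4.44, 4.51 and 4.50 after TGFb and was at least 7.95-fold (adjusted p = 4.55e-07) higher after LPS/IFNg. Ptges, the prostaglandin E synthase that acts after it, was higher by 6.11 ± 0.39, adjusted p = 1.25e-06. Hpgd, which inactivates prostaglandins, went the other way: 4.48 and 4.29 after LPS/IFNg and 11.68, 12.03 and 12.32 after TGFb, at least 100-fold (adjusted p = 1.17e-07) higher after TGFb and detected on no LPS/IFNg array. Across the prostaglandin and leukotriene list Ptgs2 and Ptges were the 2 higher after LPS/IFNg and 9 of 18 were higher after TGFb. Among the latter were Pla2g15 (-3.30 ± 0.17, adjusted p = 3.08e-07), a lysosomal phospholipase, and Alox5ap (-3.22 ± 0.39, adjusted p = 8.54e-05), the activator of 5-lipoxygenase.

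Genes of antigen presentation were mostly higher after LPS/IFNg for class I and in part for class II. Of 19 tested class I and peptide transport genes 14 were higher after LPS/IFNg and 0 after TGFb (median 2.16). They were led by H2-Q6 (4.75 ± 0.73, adjusted p = 0.000409), H2-Q8 (4.57 ± 0.84, adjusted p = 0.00126) and the peptide transporter chain Tap1 (4.30 ± 0.52, adjusted p = 7.9e-05). B2m, the shared light chain, was at 14.81 against 14.38 and not called (0.43 ± 0.19, adjusted p = 0.0945). The proteasome list had 19 of 24 higher and 0 lower. The largest were the 3 catalytic subunits of the immunoproteasome, Psmb9 (2.82 ± 0.35, adjusted p = 9.5e-05), Psmb8 (2.07 ± 0.19, adjusted p = 1.3e-05) and Psmb10 (1.94 ± 0.28, adjusted p = 0.00028), against a list median of 0.77. Leaving out single arrays took the proteasome count to between 12 and 20. Class II chains were far higher after LPS/IFNg: H2-Eb1 (at least 59.6-fold, adjusted p = 8.03e-07) and H2-Aa (at least 24.3-fold, adjusted p = 4.4e-06) were detected on no TGFb array, and H2-Ab1 differed by 5.31 ± 0.48, adjusted p = 1.22e-05. Ctss, the lysosomal protease that trims the invariant chain, was higher after TGFb (-1.34 ± 0.27, adjusted p = 0.00238). So were Lgmn (-0.80 ± 0.16, adjusted p = 0.00264; 0.0726 under median scaling) and H2-Ob (-1.62 ± 0.28, adjusted p = 0.000902). In total 6 of 13 class II genes (46.2%) were higher after LPS/IFNg and 3 (23.1%) after TGFb. The first share was above the 17.8% of all genes and the second near their 24.2%.

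Costimulatory molecules included Cd40, the receptor for T cell CD40 ligand, at 13.67 and 13.88 after LPS/IFNg and 6.16, 4.36 and 6.00 after TGFb (8.27 ± 0.78, adjusted p = 1.55e-05), detected on 2 of 3 TGFb arrays. Slamf7 (6.93 ± 0.43, adjusted p = 9.21e-07) and the adhesion molecule Vcam1 (at least 43.8-fold, adjusted p = 1.28e-06, on no TGFb array) were higher too, and 11 of 22 tested were called in this direction. The 2 higher after TGFb were the checkpoint receptors Havcr2 (Tim-3; -3.16 ± 0.33, adjusted p = 2.98e-05) and Vsir (VISTA; -2.78 ± 0.41, adjusted p = 0.000319).

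The NF-kB pathway list had 19 of 22 tested genes higher after LPS/IFNg and 0 higher after TGFb (median 2.38). Traf1, an adaptor of TNF receptors, read 11.80 and 11.67 after LPS/IFNg and 4.28, 4.59 and 4.49 after TGFb and was at least 95.7-fold (adjusted p = 6.07e-06) higher. Nfkbiz (4.39 ± 0.44, adjusted p = 2.29e-05) and Nfkbie (3.77 ± 0.39, adjusted p = 3.05e-05), members of the inhibitor family that NF-kB itself induces, followed. The 3 not called, named after their values were seen, were the p65 subunit gene Rela (0.05 ± 0.16), the kinase gene Ikbkb (0.04 ± 0.19) and Traf6 (-0.07 ± 0.21). Pattern recognition receptors were called in both directions, 14 of 27 (51.9%) higher after LPS/IFNg and 7 (25.9%) after TGFb. The first share was above the 17.8% of all genes and the second near their 24.2%. The lectin Clec4e (5.41 ± 0.44, adjusted p = 6.14e-06), Nod1 (4.14 ± 0.29, adjusted p = 2.18e-06) and Tlr1 (3.11 ± 0.27, adjusted p = 7.87e-06) led the first group. The second was led by Tlr2 (-2.74 ± 0.47, adjusted p = 0.000811), Tlr13 (-2.40 ± 0.52, adjusted p = 0.00336) and Ly86 (-2.20 ± 0.24, adjusted p = 4.3e-05). Tlr4, the LPS receptor, and its co-receptor Cd14, both picked after their values were seen, were not called (-0.53 ± 0.22 and 0.16 ± 0.38). Of 24 cell death and inflammasome genes 13 were higher after LPS/IFNg. They were led by the necroptosis effector Mlkl (at least 64.7-fold, adjusted p = 2.39e-05, on no TGFb array), the death receptor Fas (5.22 ± 0.65, adjusted p = 9.62e-05) and Casp4 (4.64 ± 0.42, adjusted p = 1.21e-05), an intracellular LPS sensor. Bcl2l11 (Bim; -3.18 ± 0.39, adjusted p = 8.85e-05) and Naip5 (-1.46 ± 0.28, adjusted p = 0.00165) were higher after TGFb.

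Several of the largest differences lay in genes outside the lists given so far. Whether these genes follow the same signals was not tested. Mmp13, a collagenase, read 14.95 and 14.83 after LPS/IFNg and 6.56, 6.96 and 6.87 after TGFb (8.09 ± 0.43, adjusted p = 3.35e-07). Clec4a1, a C-type lectin receptor, stood at 12.83 and 12.37 after LPS/IFNg and 6.47, 6.24 and 5.53 after TGFb (6.52 ± 0.59, adjusted p = 1.1e-05). Its untreated level was 10.75 ± 0.98 (SD, n = 3), so most of this gap lay on the TGFb side. Calhm6, of a calcium channel family, stood at 12.11 and 12.81 after LPS/IFNg and 5.97, 5.56 and 6.71 after TGFb (6.38 ± 0.35, adjusted p = 4.55e-07). AA467197 read 12.04 and 11.19 after LPS/IFNg and 5.76, 5.52 and 6.10 after TGFb (5.82 ± 0.35, adjusted p = 8.31e-07), and Phf11a 11.85 and 12.06 after LPS/IFNg and 6.71, 5.98 and 5.86 after TGFb (5.77 ± 0.67, adjusted p = 6.44e-05). These genes were picked from genes whose groups did not overlap, so the lack of overlap is no separate result. Genes at the floor after TGFb and in untreated cells were Upp1, Serpina3f and Dnase1l3. Upp1, a uridine phosphorylase, stood at 12.09 and 11.55 after LPS/IFNg and 4.33, 4.49 and 4.38 after TGFb (at least 102-fold, adjusted p = 3.17e-09). Serpina3f, a serine protease inhibitor, stood at 11.89 and 11.88 after LPS/IFNg and 4.28, 4.37 and 4.29 after TGFb (at least 106-fold, adjusted p = 8.46e-07). Dnase1l3, a secreted DNase, stood at 11.07 and 11.93 after LPS/IFNg and 4.49, 4.32 and 4.52 after TGFb (at least 81.4-fold, adjusted p = 0.000329). All 3 were high on both LPS/IFNg arrays. Further out, Fpr2, a formyl peptide receptor, differed by 7.53 ± 0.98, adjusted p = 0.000132, Lcn2, a siderophore-binding protein, by 6.84 ± 0.62, adjusted p = 1.15e-05, and the phosphatase Dusp2 was at least 42.5-fold (adjusted p = 4.91e-08) higher.

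**Figure D3:**
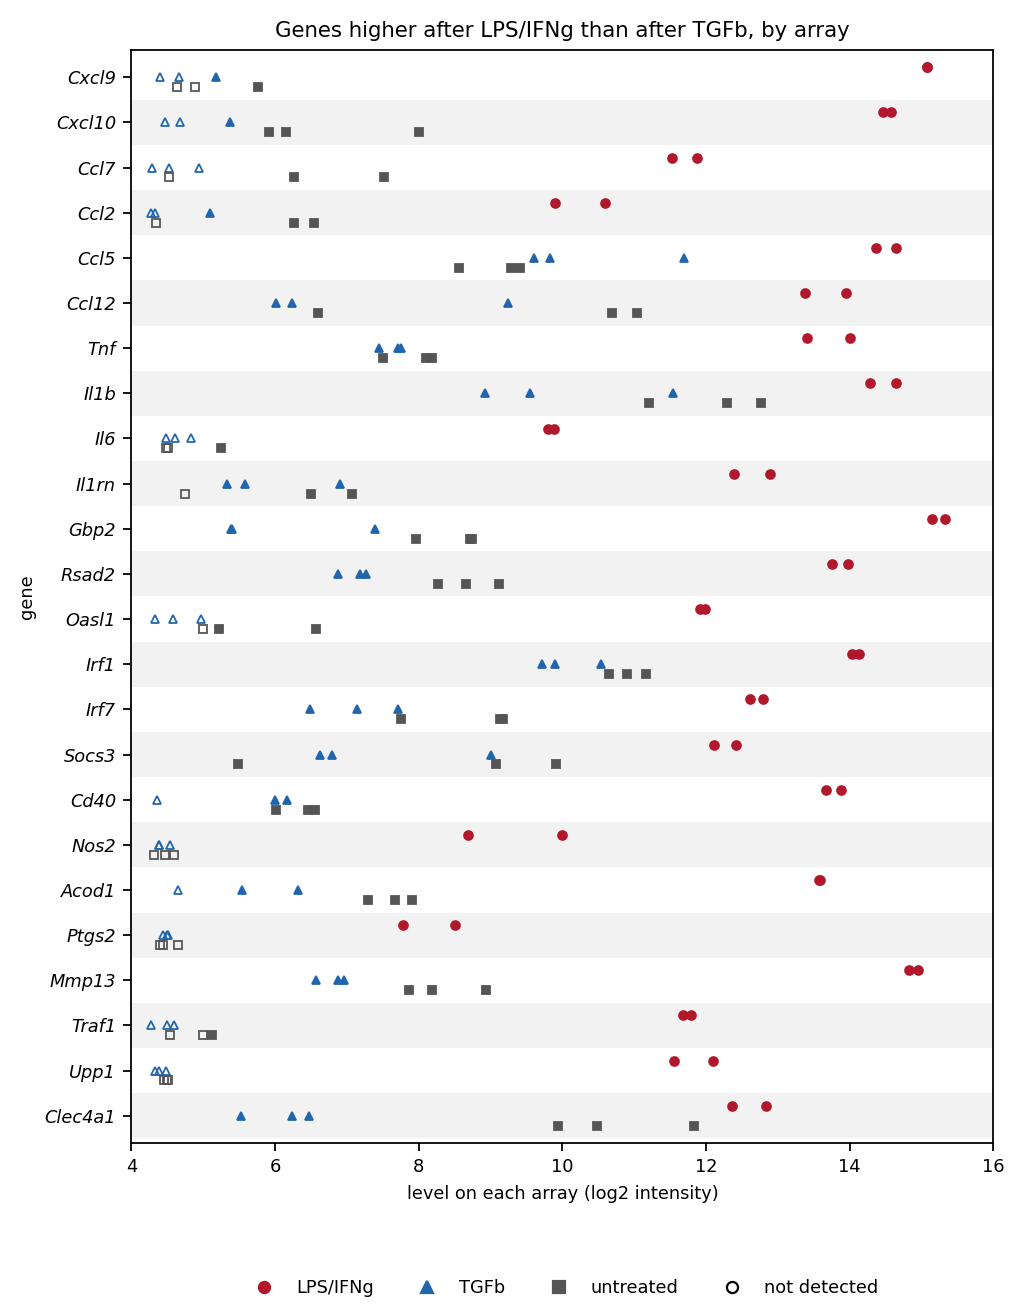
Level of 24 genes higher after LPS/IFNg on each array (x axis, log2 intensity; rows, genes); red circles are LPS/IFNg arrays, blue triangles TGFb arrays and grey squares untreated arrays, and open symbols mark arrays on which the gene was not detected. In every row both LPS/IFNg arrays lie to the right of all 3 TGFb arrays, and TGFb replicate 1 is the array that comes nearest for Gbp2 (7.40), Il1b (11.55) and Ccl12 (9.25).

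On the other side, homeostatic microglia genes were the main group higher after TGFb: 32 of 45 tested were called in this direction and 0 in the other, with a median difference of -2.16. Cx3cr1, the receptor for neuronal fractalkine, stood at 8.07 and 6.05 after LPS/IFNg and 14.15, 13.64 and 12.39 after TGFb (-6.33 ± 0.62, adjusted p = 2.07e-05). Olfml3, a secreted protein, stood at 7.30 and 6.19 after LPS/IFNg and 13.43, 13.65 and 13.11 after TGFb (-6.66 ± 0.48, adjusted p = 2.84e-06). Tmem119, a surface marker of microglia, read 5.06 and 4.60 after LPS/IFNg and 10.79, 9.68 and 9.78 after TGFb and was at least 26.3-fold (adjusted p = 9.58e-05) higher after TGFb. In these 3 genes each LPS/IFNg array was below each TGFb array by several log2 units. Cx3cr1 and Olfml3 were picked by size from genes without overlap. Gpr34, a lysophosphatidylserine receptor, read 4.76 and 4.54 after LPS/IFNg and 10.53, 10.96 and 10.71 after TGFb (at least 41.2-fold, adjusted p = 4.21e-05). P2ry12, the ADP receptor that guides process extension, read 4.87 and 4.68 after LPS/IFNg and 7.59, 6.84 and 7.18 after TGFb (at least 3.58-fold, adjusted p = 0.00516). Slco2b1, an organic anion transporter, stood at 4.57 and 4.37 after LPS/IFNg and 13.09, 12.80 and 12.82 after TGFb (at least 186-fold, adjusted p = 7.94e-08). The ribonuclease gene Rnase4 read 5.18 and 4.58 after LPS/IFNg and 12.50, 12.02 and 12.14 after TGFb (at least 115-fold, adjusted p = 5.9e-06). A further ribonuclease gene, Ang, read 5.29 and 4.56 after LPS/IFNg and 11.04, 10.50 and 10.37 after TGFb (at least 38.6-fold, adjusted p = 0.000135). The other passing Ang probe differed by only -0.47 and was not called. Ang and Rnase4 share a promoter window, so they may not be 2 separate observations. None of Tmem119, Gpr34, P2ry12, Slco2b1, Rnase4 and Ang was detected on an LPS/IFNg array. Csf1r, the receptor for the survival factors CSF1 and IL-34, was reduced less, at 10.94 and 10.02 after LPS/IFNg and 12.78, 12.50 and 12.51 after TGFb (-2.12 ± 0.27, adjusted p = 0.000131). The complement genes C1qa (-0.61), C1qb (0.13) and C1qc (-0.21) and Itgam (0.07), picked after their values were seen, were not called. Of the microglia markers 9 of 15 were higher after TGFb. In contrast, Aif1 (1.35 ± 0.26, adjusted p = 0.00179) and Ptprc (0.87 ± 0.29, adjusted p = 0.0308; 0.275 without LPS/IFNg replicate 3, and lost without TGFb replicate 1 or 2) were higher after LPS/IFNg.

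**Figure D4:**
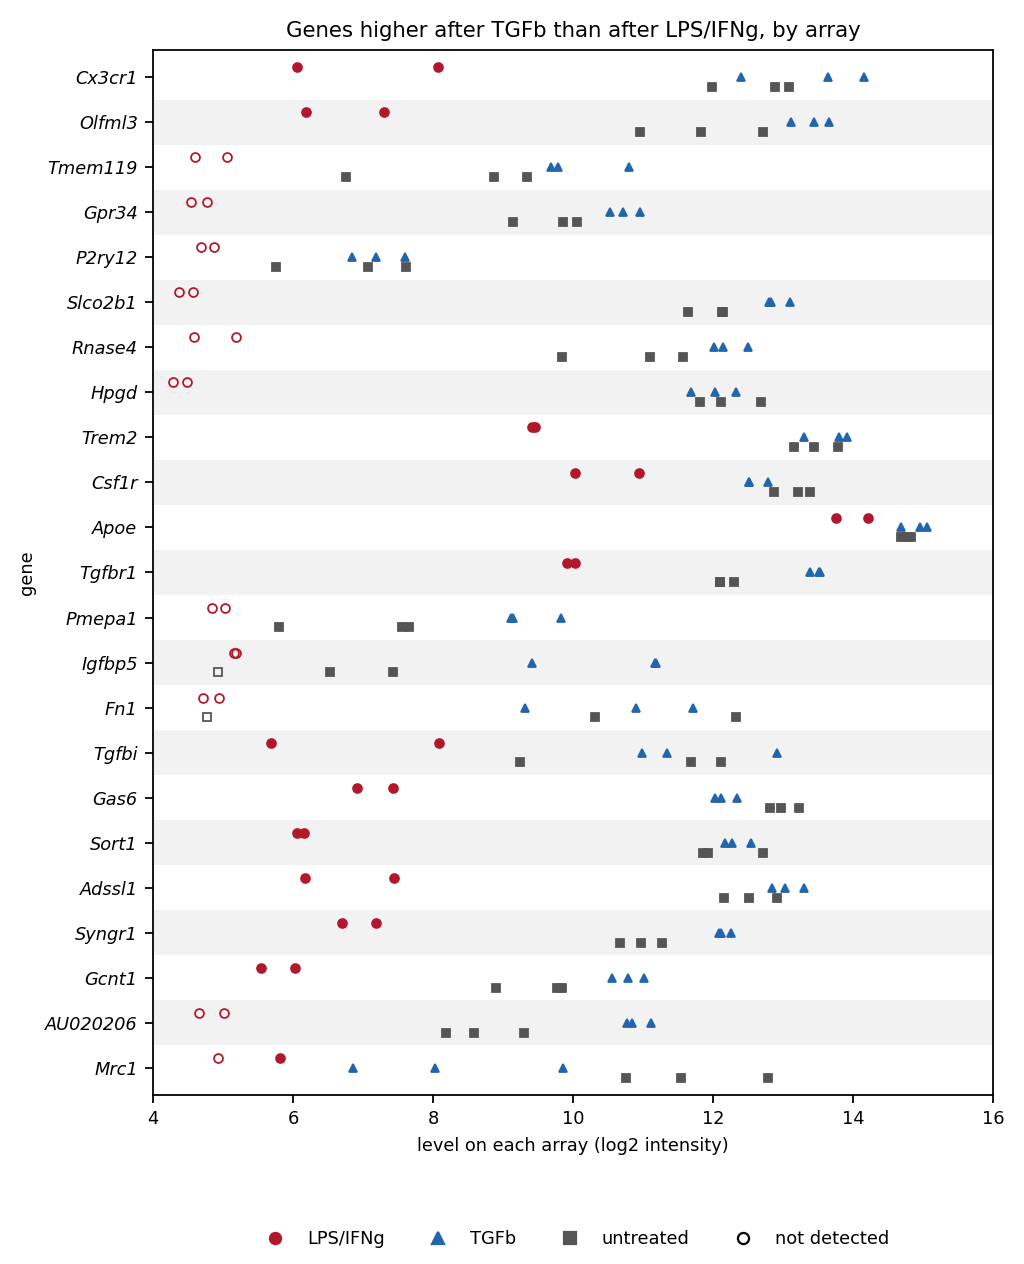
Level of 23 genes higher after TGFb on each array (x axis, log2 intensity; rows, genes), with the symbols of the plot of genes higher after LPS/IFNg. The LPS/IFNg arrays (red circles) lie left of all TGFb arrays in each row, and open red circles show the genes detected on no LPS/IFNg array, such as Slco2b1 and Hpgd; untreated arrays (grey squares) lie between the treatments for Tgfbr1, Pmepa1 and AU020206, and above both for Mrc1.

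Components of the TGFb pathway itself were mostly higher after TGFb or not called. Tgfbr1, the type I receptor, stood at 10.03 and 9.91 after LPS/IFNg and 13.53, 13.50 and 13.38 after TGFb (-3.50 ± 0.23, adjusted p = 1.25e-06), an 11.3-fold difference. Pmepa1, a Smad-induced feedback inhibitor, read 4.84 and 5.02 after LPS/IFNg and 9.82, 9.11 and 9.14 after TGFb and was at least 15.9-fold (adjusted p = 6.24e-05) higher. Bmpr2, a BMP type II receptor, differed by -1.84 ± 0.26, adjusted p = 0.00023. In total 10 of 23 tested receptors, Smads and inhibitors were higher after TGFb. The ubiquitin ligase Smurf1 was higher after LPS/IFNg (0.91 ± 0.33, adjusted p = 0.0452; up to 0.236, and past the threshold in no more than 3 of the 11 fits that leave out an array). Smad2 (0.21 ± 0.14), Smad3 (-0.39 ± 0.25) and the ligand Tgfb1 (0.53 ± 0.26), picked after their values were seen, were not called. Of 22 known response genes 11 were higher after TGFb and 3 after LPS/IFNg (median -1.04). Igfbp5, an IGF-binding protein, read 5.15 and 5.18 after LPS/IFNg and 9.42, 11.18 and 11.17 after TGFb (at least 37.3-fold, adjusted p = 0.000171). Fn1, fibronectin, read 4.94 and 4.70 after LPS/IFNg and 11.70, 10.90 and 9.31 after TGFb (at least 38.6-fold, adjusted p = 0.017), but its spread was wide and it missed the threshold without LPS/IFNg replicate 1, without LPS/IFNg replicate 3 (0.0856) and without TGFb replicate 1. Tgfbi, a matrix protein named for its induction by TGFb, stood at 8.08 and 5.69 after LPS/IFNg and 12.91, 11.33 and 10.99 after TGFb (-4.86 ± 0.91, adjusted p = 0.00144). In Igfbp5, Fn1 and Tgfbi the arrays within a treatment differed by up to a few log2 units, yet the treatments did not overlap. Tgfbi was picked from genes without overlap, so for it this was given. The 3 of the opposite direction were Igfbp4 (1.58 ± 0.54, adjusted p = 0.0372; 0.138 without LPS/IFNg replicate 1, and lost without 4 other single arrays), Ndrg1 (1.25 ± 0.30, adjusted p = 0.00699; 0.0924) and Junb (1.07 ± 0.27, adjusted p = 0.00913; 0.0688 without the same array).

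Further genes detected on every array and far higher after TGFb had varied roles. Adssl1, an enzyme of adenine nucleotide synthesis, stood at 7.43 and 6.17 after LPS/IFNg and 13.03, 13.30 and 12.84 after TGFb (-6.25 ± 0.60, adjusted p = 1.7e-05). Sort1, the sorting receptor sortilin, stood at 6.15 and 6.05 after LPS/IFNg and 12.26, 12.16 and 12.54 after TGFb (-6.22 ± 0.50, adjusted p = 5.2e-06). Gas6, the bridging ligand of the phagocytic receptors Axl and Mertk, read 6.91 and 7.42 after LPS/IFNg and 12.02, 12.10 and 12.34 after TGFb (-4.99 ± 0.21, adjusted p = 9.33e-08). Axl and Mertk themselves, picked after their values were seen, were not called (-0.54 ± 0.31 and 0.31 ± 0.29). Syngr1, a vesicle membrane protein, read 6.70 and 7.18 after LPS/IFNg and 12.09, 12.25 and 12.12 after TGFb (-5.21 ± 0.34, adjusted p = 1.4e-06). Nuak1, a kinase related to AMPK, read 6.45 and 5.45 after LPS/IFNg and 11.11, 11.08 and 10.89 after TGFb (-5.08 ± 0.41, adjusted p = 5.24e-06). The level of Pald1 was 7.14 and 6.23 after LPS/IFNg and 11.82, 11.67 and 11.69 after TGFb (-5.04 ± 0.45, adjusted p = 1.04e-05). The 2 groups were several log2 units apart in Adssl1, Sort1, Gas6, Syngr1, Nuak1 and Pald1, which were picked by size among genes without overlap. Gcnt1, a glycosyltransferase that branches O-glycans, stood at 6.03 and 5.54 after LPS/IFNg and 11.01, 10.55 and 10.79 after TGFb (-5.00 ± 0.34, adjusted p = 1.68e-06). St6gal1, which adds sialic acid to glycans, stood at 7.93 and 5.98 after LPS/IFNg and 12.01, 11.93 and 11.86 after TGFb (-4.98 ± 0.49, adjusted p = 2.02e-05). Abi3, an actin regulator, stood at 6.38 and 5.79 after LPS/IFNg and 11.29, 10.65 and 10.62 after TGFb (-4.76 ± 0.38, adjusted p = 5.29e-06). AU020206 was detected on no LPS/IFNg array, at 5.01 and 4.65 after LPS/IFNg and 10.77, 10.83 and 11.11 after TGFb (at least 46.4-fold, adjusted p = 5e-06).

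Transcription factors of microglia and macrophages were called in both directions, 11 of 24 tested (45.8%) higher after TGFb and 3 (12.5%) after LPS/IFNg. The first share was above the 24.2% of all genes and the second below their 17.8%. Mef2c (-3.80 ± 0.42, adjusted p = 4.65e-05), Sall3 (-3.60 ± 0.37, adjusted p = 2.79e-05) and Ets1 (-2.99 ± 0.34, adjusted p = 5.14e-05) led the first. The second was made up of Maf (at least 3.73-fold, adjusted p = 0.00388, on no TGFb array), Ets2 (1.38 ± 0.26, adjusted p = 0.00134) and Spi1 (1.31 ± 0.19, adjusted p = 0.000303), which encodes PU.1. Receptors showed both directions as well. Cxcr4 (at least 32.4-fold, adjusted p = 4.91e-08) and the oxysterol receptor Gpr183 (at least 21-fold, adjusted p = 1.11e-05) were higher after TGFb and detected on no LPS/IFNg array. The niacin receptor Hcar2 (4.43 ± 0.81, adjusted p = 0.0013) and P2ry14 (3.72 ± 0.98, adjusted p = 0.0104; 0.0838 without LPS/IFNg replicate 1) were higher after LPS/IFNg.

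Lysosomal genes and genes of the damage-associated microglia state were higher after TGFb in 22 of 40 tested and higher after LPS/IFNg in 0 (median -0.84). Trem2, a lipid-sensing receptor, stood at 9.42 and 9.45 after LPS/IFNg and 13.29, 13.91 and 13.80 after TGFb (-4.24 ± 0.25, adjusted p = 8.39e-07). Ank, a pyrophosphate transporter (-5.78 ± 0.35, adjusted p = 9.21e-07), and the tetraspanin Cd9 (-4.45 ± 0.45, adjusted p = 2.51e-05) were the largest of the list. Apoe, the main lipid carrier of the brain, differed little, at 14.21 and 13.75 after LPS/IFNg and 15.05, 14.95 and 14.68 after TGFb (-0.91 ± 0.28, adjusted p = 0.0242). Its call was lost under median scaling, with the replicate number as a block and without LPS/IFNg replicate 3 (0.185), TGFb replicate 1 or TGFb replicate 2. Of lipid efflux genes and nuclear receptors 11 of 22 were higher after TGFb, among them Apoc1 (-3.51 ± 0.42, adjusted p = 7.01e-05), Apoc2 (-2.68 ± 0.50, adjusted p = 0.00143) and the lysosomal lipase Lipa (-2.67 ± 0.38, adjusted p = 0.000242). The 2 higher after LPS/IFNg were Nr1h3 (LXR alpha; 3.42 ± 0.32, adjusted p = 1.55e-05) and Npc2 (0.79 ± 0.18, adjusted p = 0.00403; 0.051 without LPS/IFNg replicate 3). Cholesterol and fatty acid synthesis had 13 of 25 genes higher after TGFb and 0 after LPS/IFNg. In front were the desaturase Fads1 (-4.28 ± 0.34, adjusted p = 5.28e-06), squalene epoxidase Sqle (-2.32 ± 0.42, adjusted p = 0.00115) and the elongase Elovl5 (-2.06 ± 0.25, adjusted p = 9.03e-05).

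Phagocytic and scavenger receptors changed in both directions, 10 of 24 higher after TGFb and 7 after LPS/IFNg. Marco (5.46 ± 0.54, adjusted p = 2.06e-05) and the phosphatidylserine receptor Timd4 (at least 28.6-fold, adjusted p = 1.42e-08, on no TGFb array) were higher after LPS/IFNg, and the integrin chain Itgb5 (-4.75 ± 0.39, adjusted p = 5.91e-06) after TGFb. Mrc1, the mannose receptor, read 5.82 and 4.93 after LPS/IFNg and 9.85, 6.85 and 8.02 after TGFb (-2.87 ± 0.82, adjusted p = 0.0157), with detection on 1 of 2 LPS/IFNg arrays. Its untreated level was 11.69 ± 1.02 (SD, n = 3), above both treatments, and the call was lost without LPS/IFNg replicate 3 (0.117). Of complement and Fc receptor genes 7 of 20 (35%) were higher after LPS/IFNg and 3 (15%) after TGFb, against 17.8% and 24.2% of all genes. The 7 were led by the C1 inhibitor Serping1 (at least 16.8-fold, adjusted p = 7.59e-08) and Fcgr4 (3.40 ± 0.45, adjusted p = 0.000143). The 3 higher after TGFb, Fcgrt, Cd59a and Fcgr3 (-1.63 ± 0.42, -0.84 ± 0.24 and -0.68 ± 0.23), missed the threshold without LPS/IFNg replicate 3 (Fcgrt, 0.0736), without replicate 1 (Cd59a, 0.107) and when any single array of the 5 was left out (Fcgr3, up to 0.191). Matrix and protease genes had 4 of 25 (16%) higher after LPS/IFNg and 6 (24%) after TGFb, or 6 and 4 under median scaling. The 16% and 24% were near the 17.8% and 24.2% of all genes. Mmp25 (at least 25.6-fold, adjusted p = 9.33e-08) was on the first side and the inhibitor Timp2 (-4.42 ± 0.18, adjusted p = 8.85e-08) on the second. Integrins and adhesion molecules were even, with 7 of 22 on each side: Itgal (3.40 ± 0.34, adjusted p = 2.16e-05) and Icam1 (3.05 ± 0.47, adjusted p = 0.000386) against the junctional molecule F11r (-3.69 ± 0.51, adjusted p = 0.000216).

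Metabolic genes moved in part. Glycolysis and hypoxia genes were higher after LPS/IFNg in 11 of 28 tested, with Pfkp (2.73 ± 0.22, adjusted p = 5.98e-06), Hk3 (2.43 ± 0.41, adjusted p = 0.0007) and Tpi1 (1.63 ± 0.29, adjusted p = 0.00106) in front. The 2 higher after TGFb were Egln3 (-3.06 ± 0.65, adjusted p = 0.00322) and Bnip3l (-2.07 ± 0.31, adjusted p = 0.000327). Leaving out single arrays gave 5 to 12 in the first direction. The citric acid cycle and respiratory chain list was near the share of all genes in both directions, 8 and 7 of 39 (2 and 6 without LPS/IFNg replicate 3). It held 2 large differences: the isocitrate dehydrogenases Idh1 (-3.84 ± 0.26, adjusted p = 1.84e-06) and Idh2 (at least 8.01-fold, adjusted p = 1.15e-06, on no LPS/IFNg array) were higher after TGFb. Cytochrome c, Cycs (1.84 ± 0.28, adjusted p = 0.000378), and the complex III subunit Cyc1 (0.91 ± 0.16, adjusted p = 0.00106) were higher after LPS/IFNg. Oxidative stress genes had 9 of 32 higher after LPS/IFNg, including Sod2 (2.96 ± 0.24, adjusted p = 5.26e-06) and the Nrf2 inhibitor Keap1 (1.70 ± 0.20, adjusted p = 7.57e-05). A further 6 were higher after TGFb, including the metallothionein Mt1 (-2.16 ± 0.28, adjusted p = 0.000122) and Gpx1 (-2.11 ± 0.31, adjusted p = 0.000318). The shares of this list, 28.1% and 18.75%, stood against 17.8% and 24.2% of all genes. Stress response genes were higher after LPS/IFNg in 7 of 28 (25%, against 17.8% of all genes), led by Ddit3 (1.99 ± 0.42, adjusted p = 0.00328) and Ppp1r15a (1.94 ± 0.19, adjusted p = 1.83e-05). Bag3 was higher after TGFb (-0.86 ± 0.21, adjusted p = 0.00758; 0.0685 without LPS/IFNg replicate 3).

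Cytosolic ribosomal protein genes were higher after TGFb in 23 of 29 tested and higher after LPS/IFNg in 0, by a small and even amount (median -0.80). Rpl22 (-1.38 ± 0.20, adjusted p = 0.000305), Rps16 (-1.34 ± 0.16, adjusted p = 7.65e-05) and Rps19 (-1.26 ± 0.17, adjusted p = 0.000176) were the largest. Under median scaling 10 of 29 stayed past the threshold and the median was -0.44, in the same direction. DNA replication and mitosis genes had 9 of 44 (20.5%) higher after TGFb and 4 (9.09%) higher after LPS/IFNg. Both shares lay below the 24.2% and 17.8% of all genes. Cenpa (-3.38 ± 0.29, adjusted p = 7.67e-06) and Cdk1 (-1.30 ± 0.21, adjusted p = 0.000598) stood against Ccne1 (at least 3.06-fold, adjusted p = 1.15e-05, on no TGFb array). G1 regulators were even, 5 and 6 of 23 (6 and 5 under median scaling). Their shares, 21.7% and 26.1%, were near the 17.8% and 24.2% of all genes. Cyclin D2, Ccnd2 (5.16 ± 0.80, adjusted p = 0.000422), and Gadd45b (4.95 ± 0.30, adjusted p = 8.36e-07) were higher after LPS/IFNg, as was Ccnd1 (2.05 ± 0.43, adjusted p = 0.00281). Ccng2 (-1.87 ± 0.25, adjusted p = 0.000158), Gadd45g (-1.20 ± 0.26, adjusted p = 0.00344) and E2f2 (at least 5.6-fold, adjusted p = 1.38e-05, on no LPS/IFNg array) were higher after TGFb. Immediate early factors and dual specificity phosphatases had 9 and 8 of 23, with Dusp1 (3.05 ± 0.32, adjusted p = 3.46e-05) and Batf (3.01 ± 0.35, adjusted p = 6.41e-05) against Dusp3 (-2.31 ± 0.36, adjusted p = 0.000429). Genes of IL-4 alternative activation had 6 of 32 (18.75%) on each side, near or below the shares of all genes. Of the 32, 11 were detected on none of the 5 arrays. The histone demethylase Kdm6b (at least 5.97-fold, adjusted p = 3.02e-06, on no TGFb array) and the coactivator Ppargc1b (2.44 ± 0.32, adjusted p = 0.000143) were higher after LPS/IFNg. Il12b was not analysed here, and Smad7 was detected on no array.

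**Figure D5:**
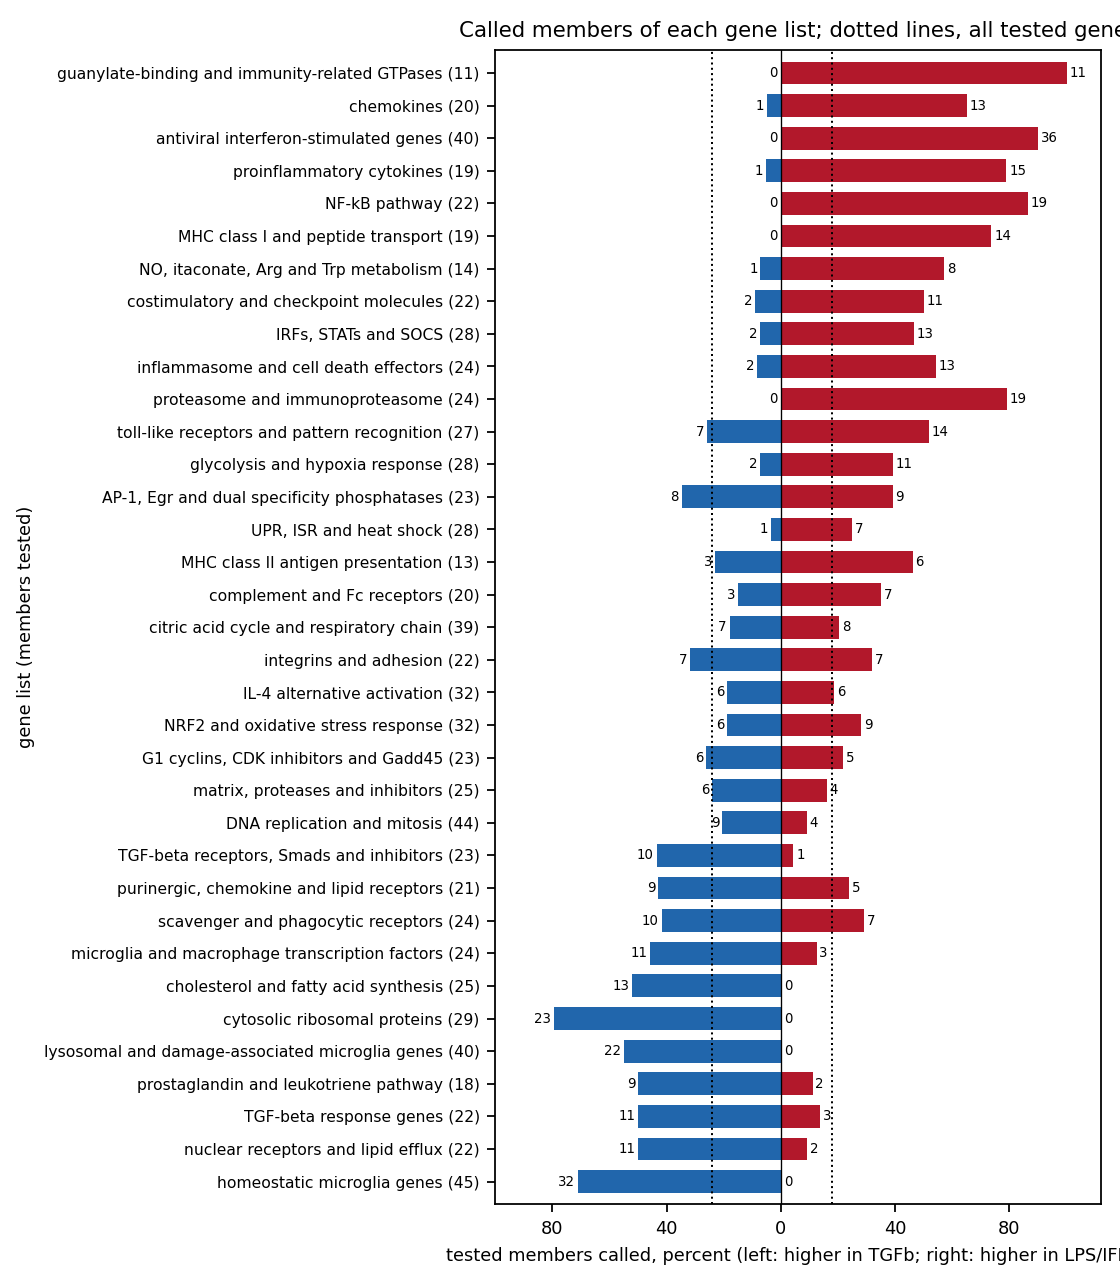
Tested members of 35 gene lists that were called (x axis, percent of tested members; rows, lists with the number tested, ordered by median difference); red bars to the right are members higher after LPS/IFNg, blue bars to the left members higher after TGFb, with their counts. The dotted lines mark the shares over all genes, 17.8% and 24.2%; the interferon, GTPase, NF-kB and proteasome lists reach far past the right line with no blue bar, and the homeostatic, ribosomal and lysosomal lists far past the left line with no red bar.

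The untreated arrays show on which side of the comparison a difference lay; both contrasts below share these 3 arrays. LPS/IFNg differed from untreated in 3674 genes (41.0%) and TGFb in 88 (0.983%), the latter count ranging from 0 within slide 2 to 289 with array weights or the authors' table. Cxcl9 differed by 9.99 in LPS/IFNg minus untreated and -0.35 in TGFb minus untreated, and Tnf by 5.78 in LPS/IFNg minus untreated and -0.30 in TGFb minus untreated. Cx3cr1 differed by -5.59 in LPS/IFNg minus untreated and 0.74 in TGFb minus untreated. Slco2b1 was at least 97.1-fold lower after LPS/IFNg than in untreated cells and differed by 0.94 in TGFb minus untreated. In none of these 4 was the TGFb value called. Tgfbr1 differed by -2.19 in LPS/IFNg minus untreated (adjusted p = 3.22e-05) and by 1.31 in TGFb minus untreated (adjusted p = 0.0185; 0.0853 with slide as a block). Pmepa1 was at least 3.10-fold lower after LPS/IFNg than in untreated cells and higher by 2.36 in TGFb minus untreated (adjusted p = 0.0442; 0.156 with slide as a block). Igfbp5 was higher by 4.30 in TGFb minus untreated (adjusted p = 0.0182; 0.0724 with slide as a block). Clec4a1 differed by 1.85 in LPS/IFNg minus untreated (adjusted p = 0.0272; 0.0736 with slide as a block) and by -4.67 in TGFb minus untreated (adjusted p = 0.00488; 0.023 with slide as a block). With slide as a block 9 genes in all were called for TGFb minus untreated, and of these 4 genes the TGFb call of Clec4a1 was kept. Within slide 2 alone no TGFb call of the 4 was made. The median of the antiviral list was 2.14 in LPS/IFNg minus untreated and -0.78 in TGFb minus untreated. That of the homeostatic list was -1.63 in LPS/IFNg minus untreated and 0.53 in TGFb minus untreated, and that of the TGFb response list -0.45 in LPS/IFNg minus untreated and 0.51 in TGFb minus untreated. Within slides, the LPS/IFNg minus TGFb difference of Cxcl9 was 10.16 within slide 1 and 10.68 within slide 2, and of Tnf 5.83 within slide 1 and 6.25 within slide 2. The same values were -5.83 within slide 1 and -6.34 within slide 2 for Cx3cr1 and -3.49 within slide 1 and -3.47 within slide 2 for Tgfbr1.

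Most markers of other cell types were not tested, either below the detection filter or without a usable probe. Of 12 astrocyte markers 6 were tested, 0 were called (Slc1a3, the brightest, differed by 0.86 ± 0.51), and Gfap and Aldh1l1 were detected on none of the 5 arrays; the mean level of the tested ones was 5.11 to 5.18 on the LPS/IFNg arrays and 4.83 to 5.10 on the TGFb arrays. Of 13 fibroblast and mural markers 4 were tested and 0 called, with Acta2 at 6.92 after LPS/IFNg and 8.49 after TGFb (-1.57 ± 1.45). Col1a1 was detected on none of the 5 arrays, and the mean level was 4.92 to 5.36 on the LPS/IFNg arrays and 5.53 to 5.99 on the TGFb arrays. Neuronal markers (2 of 13 tested) included Elavl4, which was at least 1.55-fold (adjusted p = 0.00305) higher after LPS/IFNg at a low level, and gave means of 5.17 to 5.30 on the LPS/IFNg arrays and 4.53 to 4.77 on the TGFb arrays. Of 14 oligodendrocyte lineage markers 5 were tested. Cnp (1.99 ± 0.39, adjusted p = 0.00182) and Mag (1.60 ± 0.39, adjusted p = 0.00691, and 0.0631 without LPS/IFNg replicate 1) were higher after LPS/IFNg. Mbp (-3.62 ± 0.18, adjusted p = 2.31e-07) was higher after TGFb, but its other passing probe differed by -0.52 and was not called. The means were 6.71 to 6.84 on the LPS/IFNg arrays and 6.68 to 6.94 on the TGFb arrays. Of 12 markers of monocytes and border macrophages 6 were tested, with Clec12a (at least 1.36-fold, adjusted p = 0.000533) higher after LPS/IFNg, Mrc1 higher after TGFb and Ms4a7 at 12.73 against 12.11 and not called (0.62 ± 0.29); the means were 6.79 to 6.93 on the LPS/IFNg arrays and 6.84 to 7.89 on the TGFb arrays. Endothelial markers (2 of 11 tested) were Pecam1 (2.47 ± 0.58, adjusted p = 0.00587; 0.053 without LPS/IFNg replicate 1) and Flt1 (-2.34 ± 0.49, adjusted p = 0.00286), with means of 8.06 to 8.33 on the LPS/IFNg arrays and 7.70 to 8.51 on the TGFb arrays. Of 21 markers of other leukocytes 2 were tested and 0 called, with S100a8 at 7.34 and 7.48 and means of 5.68 to 6.10 on the LPS/IFNg arrays and 5.98 to 6.89 on the TGFb arrays, and of 9 erythroid markers 0 were tested. The part of other cell types in the differences was not tested.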

How the data were processed

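Total RNA of 11 samples was measured on Illumina mouse bead arrays. Per the file headers, the deposited scanner table holds for each probe an intensity, not normalized, and a detection p-value. The authors' normalized values of the same arrays are on a log2 scale, and the submitters' processing notes name Partek; they served as an alternative. Intensities were background-corrected, quantile-normalized and put on the log2 scale with neqc (limma 3.58.1 in R 4.3.3, offset 16). Probes detected (p below 0.01) on at least 2 of 11 arrays were kept (15937 of 45281), 13765 had 1 gene symbol, and the brightest probe stood for its gene, giving 8952 genes. One mean per treatment was fitted to all arrays with lmFit and eBayes, with Benjamini-Hochberg adjustment over all genes, after tests on simulated data. Alternatives covered background correction, scaling, the authors' table, filters, probe choice, slide, replicate block, array weights and leaving out each array. The members and the 44 lists were chosen with earlier results of these data known. Named genes are a panel, called genes picked by size, and the leading called members of each list. Those picked by size have the largest differences or the largest lower limits. For the former, only genes detected on every array of both groups and without overlap between the groups were eligible. Others are said to be chosen after their values were seen. Promoter windows are RefSeq's (GRCm38.p6).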

Additional observations from a re-analysis of the deposited data

How the results depend on the processing

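For LPS/IFNg minus TGFb, settings at an adjusted p below 0.05 other than single slides and left-out arrays called 3460 to 4197 genes against 3756. An adjusted p below 0.01 gave 2678. With 1 probe per gene, no gene was called in the opposite direction under any setting. With every probe tested, 3993 genes were called. Of these, 1770 were called only higher after LPS/IFNg and 2201 only higher after TGFb, and the rest had probes called in both directions. Within slide 1 alone 1276 were called (514 higher after LPS/IFNg, 762 after TGFb, 1276 at 2-fold or more), and within slide 2 alone 1761 (723 and 1038); the lone LPS/IFNg array of each slide is assumed to vary like the other groups. The 2339 called at 2-fold or more became 1261 without background correction and 1337 in the authors' table. Leaving out single arrays gave 2780 (without LPS/IFNg replicate 3) to 4033 (without IL-4 replicate 1) calls. Median scaling gave 3737 calls, 1927 higher after LPS/IFNg and 1810 after TGFb. LPS/IFNg minus untreated gave 2270 calls within slide 2.

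TGFb minus untreated, with 88 calls, depended on the setting: 289 in the authors' table and with array weights, 56 with no filter, 9 with slide as a fixed block and 0 in limma within slide 2 (740 at an unadjusted p below 0.05). Leaving out single arrays gave 6 (without TGFb replicate 3) to 228 (without IL-4 replicate 1). The cause was not tested.

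With the replicate number as a block (replicate block), 3838 genes were called for LPS/IFNg minus TGFb, 3460 on the 5 arrays alone, and 148 for TGFb minus untreated. Deviations of same-numbered arrays correlated at r = 0.23 and 0.37, but the labels do not say what a number shares. Deviations of the 2 LPS/IFNg arrays from their mean mirror each other, so correlations of this kind are tied and are no separate observations. Same-numbered pairs also shared a slide, and LPS/IFNg replicate 1 and TGFb replicate 2, on 1 slide, correlated at 0.15. Replicate number and slide cannot be told apart here.

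Of 194 called genes picked by the naming rule, 120 passed the threshold under every setting. Mrc1 and Socs2 were lost without background correction and in the authors' table, Pecam1 without background correction, and Smurf1 under several settings. No named gene had a probe called in the opposite direction, but for several a further passing probe was not called. Among these were Apoc2 (-0.40 on the other probe), Flt1 (-0.24), Bmpr2 (-0.48), Fn1 (-2.15) and Mbp (-0.52). Of 4 Dusp3 probes 1 was called. The number of arrays, 2 for LPS/IFNg, limits the precision, and genes at background in a group have only a lower limit there.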

Other observations

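Outside the named genes, 2172 passing probes had no single gene symbol; 330 of them were called higher after LPS/IFNg and 427 higher after TGFb. The first replicate stood above the others for Gbp2 in 2 treatments: it read 7.40 on TGFb replicate 1 against 5.39 and 5.40, and 10.65 on IL-4 replicate 1 against 6.95 and 6.94.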
